A study of Mus musculus with 24 samples.

Results

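Small RNA libraries of mouse neural progenitor cells (NPC) that carry a 111-CAG Htt allele were compared with libraries of wild-type NPC. Htt encodes huntingtin, and an expanded CAG repeat in this gene causes Huntington's disease in people. The rule for the members uses genotype and cell type and no measured value: 2 libraries of the Q111 line and 2 of the wild-type (WT) line, 4 of the 24 libraries of the series. The Q111 line comes from an allelic series of heterozygous knock-in mouse embryonic stem cells (mESC), so each cell also keeps a mouse Htt allele, and WT cells carry no knock-in. Both lines were turned into NPC by adherent culture in N2B27 medium and were then kept in FGF and EGF on laminin, so what separates them by label is the Htt allele. The labels name 1 line per allele and call the 2 samples a group biological samples, without saying whether they came from separate differentiations. The p-values therefore measure only the spread between these samples, which may be technical. A difference between the groups is therefore a difference between these lines, and the allele cannot be told apart from anything else that sets the lines apart. The other 20 libraries hold Htt knockout (KO), Q20, Q50 and Q92 NPC (2 each) and the same 6 genotypes as mESC (12). The Q92 values come from columns that the count table names Q89; the growth protocol lists an allele of 89 repeats and the titles one of 92, and each comparison with Q92 rests on taking these as 1 line.

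Gene counts were read as CPM, the counts divided by the TMM-scaled library total and set to a common scale of 1e+06. A gene counted as called where its adjusted p was under 0.05 in edgeR's quasi-likelihood test with Benjamini-Hochberg adjustment over the 441 genes that passed the count filter, fitted on the 12 NPC libraries. Every adjusted p below comes from this method, and every difference is Q111 minus WT on the log2 scale with its standard error (SE).

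The RNAs that make up such libraries are mostly small and structured. Box C/D small nucleolar RNAs (snoRNAs) guide 2′-O-methylation of ribosomal and spliceosomal RNA, box H/ACA snoRNAs guide pseudouridylation, and in mouse most of both kinds are cut out of introns of host genes, many of which encode ribosomal proteins. Replication-dependent histone mRNAs carry no poly(A) tail and end in a conserved stem-loop that is bound by SLBP, and they are made mainly while DNA is copied. Mitochondrial DNA is transcribed from both strands into long precursors that are cut at tRNAs into 2 ribosomal RNAs, tRNAs and mRNAs.

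The sequences of the snoRNAs that the results turn on are given first, as annotated on GRCm38 and written as DNA. Capitals mark the C box letters TGATG within the first 20 bases and the D box letters CTGA within the last 15 bases, or the ACA 3 bases from the end of an H/ACA snoRNA. Snora21 is an H/ACA snoRNA in an intron of the ribosomal protein gene Rpl23 (chr11:97781639-97781775, minus strand) and had the second largest increase among the called snoRNAs.
Snora21: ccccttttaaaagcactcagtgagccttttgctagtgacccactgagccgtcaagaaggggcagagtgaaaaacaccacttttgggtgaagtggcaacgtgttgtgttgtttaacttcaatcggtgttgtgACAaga
AF357428 (chr12:109679945-109680013, plus strand) and AF357341 (chr12:109681519-109681593, plus strand) are neighbouring C/D snoRNAs of the imprinted Dlk1-Dio3 region, both rose, and their first 20 bases are equal at 19 positions and their last 20 also at 19.
AF357428: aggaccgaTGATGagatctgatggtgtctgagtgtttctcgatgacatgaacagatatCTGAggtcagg
AF357341: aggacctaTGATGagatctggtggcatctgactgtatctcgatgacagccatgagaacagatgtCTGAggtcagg
Gm25848 lies in an intron of Fbxo45 (chr16:32243712-32243855, minus strand), ends in an ACA box and had the largest decrease among the called snoRNAs.
Gm25848: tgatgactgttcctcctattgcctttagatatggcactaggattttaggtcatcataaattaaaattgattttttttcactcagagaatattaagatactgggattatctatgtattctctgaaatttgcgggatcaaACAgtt
Snord87, in an intron of the noncoding host Snhg6 (chr1:9942463-9942549, minus strand), had the smallest p among the genes that fell. Snord34 (chr7:45126601-45126670, minus strand) and Snord35a (chr7:45126346-45126435, minus strand) share the host Rpl13a, all of whose tested snoRNAs fell.
Snord87: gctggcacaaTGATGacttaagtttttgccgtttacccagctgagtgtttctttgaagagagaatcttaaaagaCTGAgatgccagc
Snord34: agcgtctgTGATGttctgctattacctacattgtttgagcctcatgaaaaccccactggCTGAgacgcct
Snord35a: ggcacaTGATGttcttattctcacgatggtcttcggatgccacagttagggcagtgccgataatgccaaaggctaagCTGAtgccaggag

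The 2 Q111 NPC libraries held 342022 and 454294 counts and the 2 WT NPC libraries 682113 and 440699. The other 8 NPC libraries lay within that range. snoRNAs took 51.5% and 54.2% of the counts in Q111 and 57.4% and 62.6% in WT, and mitochondrial ribosomal RNA took 2.88% and 2.67% against 1.87% and 1.35%. Htt, which a knock-in line keeps, had 2 and 0 counts in Q111 and 9 and 2 in WT, too few to check the labels. The WT replicates stood further apart than the Q111 replicates, with chi-square values per degree of freedom of 59.1 and 4.16 over the genes. The Y RNA Rny1 alone went from 232460 CPM in WT replicate 1 to 124970 in replicate 2. Neural progenitor markers summed to 672 and 549 CPM in Q111 and 600 and 818 in WT. A large part of these sums was 1 microRNA gene, Mir181a-1, with 259 and 222 CPM in Q111 and 91.7 and 262 CPM in WT. Of the 13 progenitor markers tested, 10 had a negative and 3 a positive difference. All 27 pluripotency markers together had 0 and 4 counts in Q111 and 3 and 0 in WT. Feeder fibroblast markers had 1 and 3 counts against 8 and 7, and no mesoderm or endoderm marker had a count.

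Of the 441 genes, 48 (10.9%) were called: 22 (4.99%) were higher in Q111 and 26 (5.9%) lower. The higher genes were 6 histone genes, 4 other mRNAs, 6 snoRNAs, 2 mitochondrial ribosomal RNAs, 1 mitochondrial tRNA and 3 further RNAs. Among the lower genes 19 were annotated as snoRNAs and 4 as mRNAs. The sizes differed between the kinds of RNA: called log2 differences ran from 0.33 for the abundant Snord49a to 3.94 for Hist1h3g in one direction, and in the other the smallest was -0.35 for Snord43. At an unadjusted p under 0.05 the count was 113, and the median difference over all tested genes was 0.08. In simulated counts built on the same libraries the test recovered 84.2% of 177 genes changed by a log2 of 2 that passed the filter. These 177 were among 381 tested, a larger share than was called here. All groups were simulated with the same spread for a gene, although the WT replicates stood further apart than the Q111 replicates. Recovery in the data can therefore be lower, and smaller changes were not simulated.

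**Figure D1:**
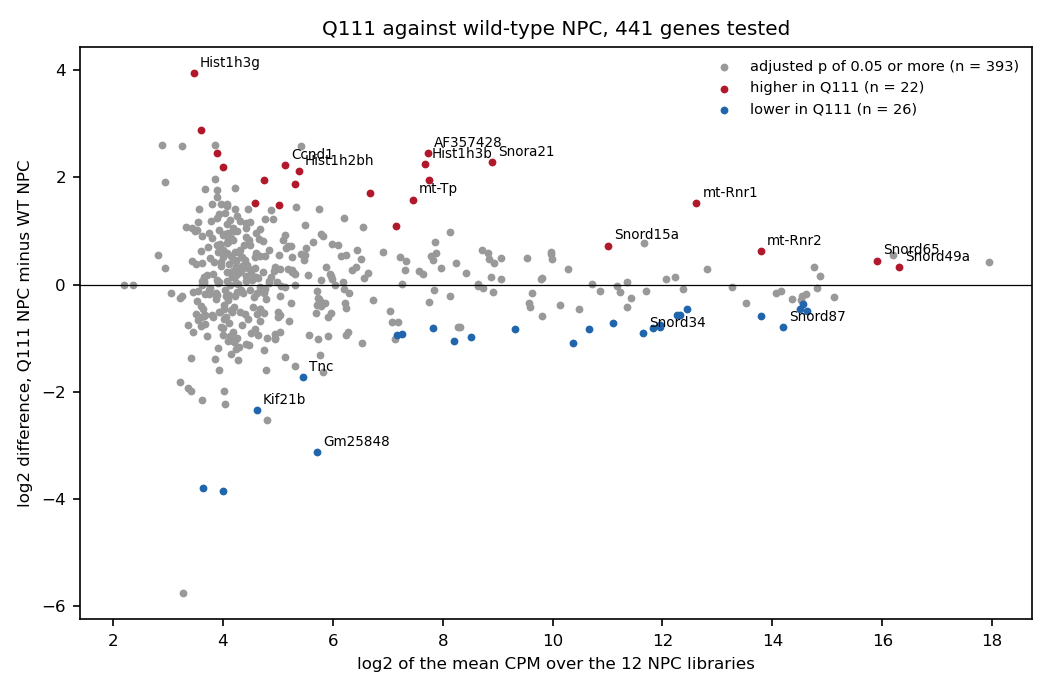
Log2 difference between Q111 and WT NPC (vertical axis) against the log2 of the mean CPM over the 12 NPC libraries (horizontal axis), 1 point per gene. Red points (22) were called higher and blue points (26) lower, grey points (393) were not called, and the lowest grey point, Snora36b, had no count in Q111, so its fitted value is no measure of size.

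The count of called genes depended on which libraries entered. Without WT replicate 2 it was 98, without WT replicate 1 it was 28, and without Q111 replicate 1 or 2 it was 14 or 25. Fitted on the 4 libraries alone it was 9 of 247 genes. Library totals in place of TMM gave 13 higher and 33 lower genes and moved the median over all genes from 0.08 to -0.03, and DESeq2's Wald test gave 13 higher and 31 lower. Calls lost without a library are given with the count filter recomputed on the libraries kept. Of the 30 genes named by rule, 7 were called under every alternative run: mt-Rnr1, AF357428, Snora21, Snord87, Gm25848, Snord34 and Snord98.

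The mitochondrial small ribosomal RNA, mt-Rnr1 (12S rRNA, chrM:70-1024, plus strand), was the gene with the smallest p. Its level was 11947 and 11471 CPM in Q111 and 4647 and 3517 CPM in WT. Both Q111 libraries lay above all other 10 NPC libraries, of which the KO, Q20, Q50 and Q92 libraries ran from 3651 to 8244 CPM. The log2 difference was 1.52 (SE 0.17, adjusted p = 4.42e-05), a 2.87-fold higher level. The large ribosomal RNA mt-Rnr2 (16S rRNA, chrM:1094-2675, plus strand) had 19211 and 18121 CPM in Q111 and 14879 and 9456 CPM in WT, a smaller log2 difference of 0.62 (SE 0.16, adjusted p = 0.0212). The call for mt-Rnr2 was lost without Q111 replicate 1, without Q111 replicate 2 and without WT replicate 2, where the value was 0.30. It was also lost under library totals (0.50, adjusted p = 0.0598), without a filter on low counts (0.11) and in the 4 libraries alone, while without WT replicate 1 the value was 1.01.

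The ratio of the 2 ribosomal RNAs within a library needs no scaling between libraries. It was 0.622 and 0.633 counts of mt-Rnr1 per count of mt-Rnr2 in Q111 and 0.312 and 0.372 in WT. In the other 8 NPC libraries it ran from 0.353 to 0.437, so the 2 Q111 libraries stood apart from the other 10 on this ratio as well. With 2 libraries against 2 the smallest two-sided p of an exact permutation test is 0.333, so none was run on it.

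The proline tRNA mt-Tp, which lies on the minus strand (chrM:15356-15422), had 335 and 273 CPM in Q111 and 112 and 89.7 CPM in WT. It rose by a log2 of 1.58 (SE 0.26, adjusted p = 0.000857). The call for mt-Tp was lost without a filter on low counts (1.1, adjusted p = 0.467). Among the 19 mitochondrial transcripts tested these 3 rose and 0 fell, beside 4.99% and 5.9% of all tested genes, and the median difference was 0.44 against 0.08 for all genes. The mRNA mt-Nd6, which encodes a complex I subunit, had 63.1 and 58.6 CPM against 26.0 and 30.6 CPM and missed the threshold with a log2 difference of 1.11 (SE 0.36, adjusted p = 0.0526). The other tested mitochondrial mRNAs had smaller values, from -0.38 for mt-Nd4 to 0.52 for mt-Nd1, none of them called. The tRNAs did not move as one: mt-Tq stood at 0.78, mt-Ta at 0.27, mt-Ts2 at -0.42, mt-Tc at -0.44 and mt-Tf at -0.93, none called. The transcripts were not compared by strand. Summed over the 37 annotated mitochondrial genes the level was 40759 and 40004 CPM in Q111, 28960 and 19789 CPM in WT and 17143 to 40154 CPM in the other 8 libraries.

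Replication-dependent histone genes were among the mRNAs that rose. Of 70 annotated genes 59 had a count in some NPC library, 15 passed the filter, 6 rose and 0 fell, beside 4.99% and 5.9% of all tested genes. All 15 differences were positive under TMM, and 14 of 15 under DESeq2's size factors and under library totals, where Hist1h1c turned negative. The median was 1.41 against 0.08 for all genes. Since members pass the filter more easily where they are high, the share that rose is a description of the 15 and not of all 70.

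The histone H3 gene Hist1h3b had the highest count of the tested histone genes in Q111. It had 612 and 573 CPM in Q111 and 55.0 and 201 CPM in WT, where the replicates differed over 3-fold from each other. Both Q111 libraries were above all other NPC libraries, whose highest value was 233 CPM, and the log2 difference was 2.25 (SE 0.53, adjusted p = 0.0105). Hist1h2bh, an H2B gene, had 117 and 129 CPM in Q111 and 13.7 and 45.9 CPM in WT, a log2 difference of 2.12 (SE 0.49, adjusted p = 0.0101). Hist1h3g, another H3 gene, had 8 and 15 counts in Q111 and 2 and 0 in WT, a ratio of 17.6 with a 95% counting interval of 4.35 to 154. Its fitted log2 difference of 3.94 (SE 0.88, adjusted p = 0.00795) depends on the prior count of the fit.

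The other 3 histone genes that rose were Hist2h3c2 (H3, 63.1 and 31.7 against 4.58 and 13.1 CPM), Hist1h1d (linker histone H1, 34.7 and 43.9 against 9.17 and 19.7 CPM) and Hist1h2bk (H2B, 91.6 and 48.8 against 7.64 and 30.6 CPM). For all 6 the Q111 libraries lay above the other 10 NPC libraries. The H4 genes did not reach the threshold: Hist1h4d stood at 1.41 (adjusted p = 0.0917), Hist1h4b at 1.16 (adjusted p = 0.0978) and Hist1h4c at 0.67 (adjusted p = 0.379). The H2A gene Hist1h2ab stood at 0.83 (adjusted p = 0.493). Near-identical histone genes share sequence: 62.1% of the 30-base stretches of Hist1h3b occur in another annotated gene and 75.4% of those of Hist1h2bk, so counts can move between copies. How reads that match several copies were counted is not given in the sources used here. Summed over all 70 genes the level was 1645 and 1539 CPM in Q111 and 338 and 829 CPM in WT, with 369 to 914 CPM in the other 8 libraries.

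Among proliferation markers only Top2a, a DNA topoisomerase of dividing cells, was tested, with 41.0 and 36.6 CPM in Q111 and 12.2 and 21.9 CPM in WT and a log2 difference of 1.22 (SE 0.48, adjusted p = 0.111). All 13 proliferation markers had counts, and they summed to 133 and 95.1 CPM in Q111, 42.8 and 83.1 CPM in WT and 28.1 to 99.7 CPM in the other 8 libraries. Their part in the histone result was not tested. Fewer cells of a kind and less RNA per cell cannot be told apart in bulk libraries.

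All 15 tested histone genes hold the 3′ stem-loop in an annotated transcript, as do 70 of 21951 protein-coding genes (0.319%). The stem-loops of the 6 genes that rose are printed with the paired stem and its 4-base loop in capitals, as they differ within the loop and at the flanks.
Hist1h3g: taaaGGCTCTTCTTAGAGCCacccat
Hist1h2bh: caaaGGCTCTTTTCAGAGCCactcaa
Hist1h3b: caaaGGCTCTTTTCAGAGCCacccac
Hist2h3c2: caaaGGCTCTTTTCAGAGCCaccaca
Hist1h1d: aaacGGCTCTTTTCAGAGCCacccac
Hist1h2bk: caaaGGCTCTTTTAAGAGCCactaaa
RefSeq promoters on GRCm38.p6, from 250 bases before to 50 bases after a start, were found for all 15 genes (16 promoters) and searched on both strands. Motifs that overlapped were each counted. The letters CCAAT occur in 13 of the 16 promoters and in all 6 of the genes that rose, against 37.4% of 32851 promoters. TATAAA occurs in 6 of the 16 and in 13.6% of all promoters. The octamer ATTTGCAT, an element of H2B promoters, occurs in 3 of the 16, Hist1h2ab, Hist1h2be and Hist1h2bk, and in 1.74% of all promoters. The promoter of Hist1h3b (chr13:23752095-23752394, plus strand), a gene of the set that rose, is shown with these letters in capitals; a match is a description of the letters only.
Hist1h3b promoter: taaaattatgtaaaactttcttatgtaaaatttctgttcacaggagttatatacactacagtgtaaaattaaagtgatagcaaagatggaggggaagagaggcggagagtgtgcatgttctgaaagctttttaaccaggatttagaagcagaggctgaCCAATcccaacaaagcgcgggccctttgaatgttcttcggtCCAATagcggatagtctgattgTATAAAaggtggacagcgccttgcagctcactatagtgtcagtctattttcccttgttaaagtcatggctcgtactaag

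**Figure D2:**
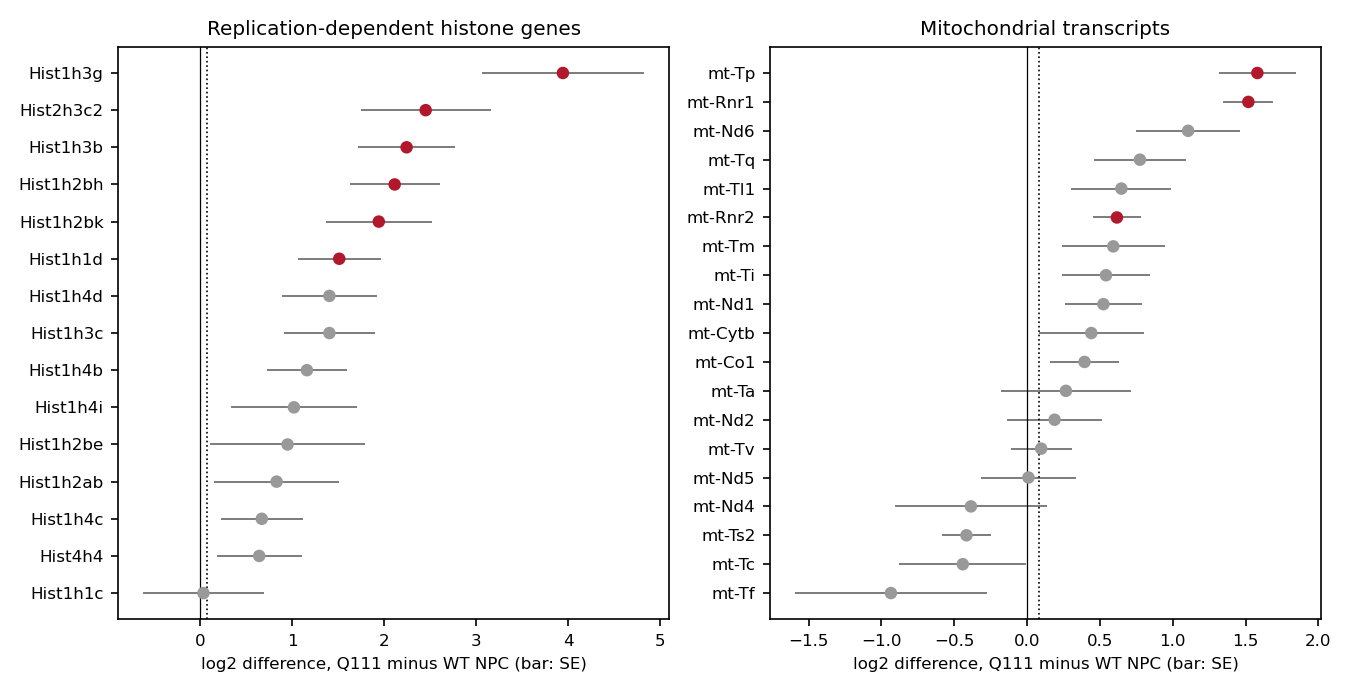
Log2 difference between Q111 and WT NPC for each of the 15 tested histone genes (left) and 19 mitochondrial transcripts (right), with bars of 1 SE; red marks a call and the dotted line the median of all genes, 0.08. The 6 called histone genes lie between 1.51 and 3.94 and the 3 called mitochondrial transcripts between 0.62 and 1.58.

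The histone calls depended on the libraries and settings. DESeq2's size factors gave 6 and library totals 4, but no filter on low counts gave 2, DESeq2's Wald test 2 and the fit on 4 libraries 0. With the 15 genes held, leaving out WT replicate 2 gave 11 and leaving out Q111 replicate 2 gave 0. Leaving out WT replicate 1 or 2 moved Hist1h3b to 1.59 or 3.39, Hist1h2bh to 1.45 or 3.11 and Hist1h3g, at few counts, to 6.91 or 3.23. Leaving out WT replicate 1 left 2 calls, leaving out Q111 replicate 1 or 2 left 1 or 2, and leaving out WT replicate 2 gave 8. Hist1h3b lost its call without Q111 replicate 1, Hist1h3g without Q111 replicate 2, and Hist1h2bh without Q111 replicate 1, without Q111 replicate 2 and without WT replicate 1.

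snoRNAs made up most of the genes that fell. Of 1507 annotated as snoRNA 105 were tested, 6 rose and 19 fell, beside 4.99% and 5.9% of all tested genes, and the median was -0.24 against 0.08 for all genes. Counted by symbol, 41 genes named Snord were tested, of which 3 rose and 11 fell, with a median of -0.25, and 11 genes named Snora were tested, of which 1 rose and 1 fell, with a median of -0.81; for these 11 genes 1 call in each direction is near the shares over all genes. By the letters in the sequence, 16 of the 19 snoRNAs that fell held C and D boxes and 2 an ACA box. Of the 6 that rose 5 held C and D boxes and 1 an ACA box. C and D boxes were thus about as frequent among those that rose (83.3%) as among those that fell (84.2%). Of the 105 tested 62 (59.0%) held C and D boxes and 27 (25.7%) an ACA box. The tested snoRNAs differ from the annotation as a whole, in which 23.0% of transcripts held C and D boxes. Under library totals 14 Snord genes fell and 1 rose.

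Several abundant snoRNAs fell, with Q111 and WT levels that by the naming rule could not overlap. Snord87 had 12761 and 14208 CPM in Q111 and 23248 and 23574 CPM in WT, a log2 difference of -0.80 (SE 0.11, adjusted p = 0.000206). The other 8 NPC libraries ran from 13625 to 25309 CPM, so 1 of the 2 Q111 libraries lay within their range. Snord98, in an intron of Ccar1, had 2952 and 3023 CPM against 5133 and 5233 CPM (log2 difference -0.79, SE 0.13, adjusted p = 0.000857). Gm24837, in Ubap2, had 3230 and 3303 CPM against 5675 and 5299 CPM (log2 difference -0.75, SE 0.14). Gm24494, in Rabggtb, was among the most abundant that fell, with 22201 and 24923 CPM against 34470 and 32162 CPM (log2 difference -0.50, SE 0.10). Snord61, in Rbmx on the X chromosome, had 4332 and 4365 CPM against 6567 and 6344 CPM (log2 difference -0.57, SE 0.13). Without Q111 replicate 1 the calls for Gm24494 and Snord61 were lost, and without Q111 replicate 2 that for Snord61.

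Gm25848 was far lower in Q111, with 2 and 5 counts against 58 and 38 in WT. Its levels were 6.31 and 12.2 CPM in Q111, 88.6 and 83.1 CPM in WT and 19.9 to 100 CPM in the other 8 NPC libraries, all above Q111. The log2 difference was -3.13 (SE 0.46, adjusted p = 0.000268). Of its 30-base stretches 13.9% occur in another annotated gene. Another H/ACA snoRNA, Snora36b, had 0 and 0 counts in Q111 and 9 and 7 in WT; with a floor of 3 counts over the Q111 group it was at least 3.49-fold lower, and it missed the threshold (adjusted p = 0.0527). Snora62, in the ribosomal protein gene Rpsa, had 114 and 112 CPM against 173 and 225 CPM and fell with a log2 difference of -0.81 (SE 0.25, adjusted p = 0.0431).

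The snoRNAs were also grouped by host gene. The 99 tested snoRNAs and small Cajal body RNAs that lie in a host were spread over 76 hosts. Of these, 15 held one that fell, 3 one that rose and 0 both. Only 9 hosts held 2 tested RNAs and 7 held 3, and a host with 1 cannot hold both. Of the 3 hosts with one that rose, Rpl23 and Rps3 held 1 tested snoRNA each. The 0 is therefore no result about hosts. All 3 tested snoRNAs of Rpl13a, a large-subunit ribosomal protein gene, fell. Snord34 had 2178 and 2215 CPM in Q111 and 4184 and 4044 CPM in WT (log2 difference -0.90, SE 0.14). Snord32a had 16648 and 18643 CPM against 24217 and 24432 CPM (log2 difference -0.46, SE 0.10). Snord35a had 240 and 232 CPM against 541 and 383 CPM (log2 difference -0.97, SE 0.23). For each of these 3 the Q111 libraries were below all other 10 NPC libraries. The call for Snord32a was lost without Q111 replicate 1, and that for Snord35a was lost without Q111 replicate 1, without Q111 replicate 2 and without WT replicate 1.

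Nop58, which encodes a core protein of C/D snoRNA particles, holds Snord70 (1127 and 1127 CPM in Q111, 2038 and 1951 CPM in WT, log2 difference -0.82, SE 0.15) and Snord11 (436 and 398 against 863 and 608 CPM, log2 difference -0.82, SE 0.21), which fell. Its other tested snoRNA, Gm26287, stood at -1.02 and was not called (adjusted p = 0.0805). In Wdr43, which encodes a factor of small-subunit assembly, Gm22858 (2387 and 2247 against 4636 and 3468 CPM) and Snord92 (78.9 and 102 against 186 and 157 CPM) fell, while Snord53 stood at -0.12 (adjusted p = 0.661). In Rpl4, Gm23344 (11268 and 11996 against 19272 and 15640 CPM) and Gm23136 (60.0 and 70.7 against 141 and 112 CPM) fell, and Gm22571 stood at -0.80 (adjusted p = 0.102). Rnu73b, a C/D snoRNA of Rps3a1 in spite of its symbol, had 1591 and 1947 CPM against 3063 and 2738 CPM (log2 difference -0.71, SE 0.16), and Snord73a of the same host stood at -0.59 (adjusted p = 0.0526). Snord43, in Rpl3, is listed as a microRNA and fell with a log2 difference of -0.35 (SE 0.11, adjusted p = 0.0408), while its neighbour Snord83b stood at -0.29 (adjusted p = 0.111). Other hosts held snoRNAs of opposite sign. In Ubap2, Gm24837 fell (-0.75) while Gm22888 stood at 0.26 (adjusted p = 0.609). In Rpsa, Snora62 fell (-0.81) while Gm26448 stood at 0.23 (adjusted p = 0.76). The noncoding transcript 1110038B12Rik, whose exons overlap Snord52 and another snoRNA on the same strand, had 849 and 895 CPM against 2273 and 1452 CPM (log2 difference -1.10, SE 0.21); its counts may belong to either. Without Q111 replicate 1 the calls for Gm23344, Rnu73b and 1110038B12Rik were lost, and without WT replicate 1 that for Gm23344.

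**Figure D3:**
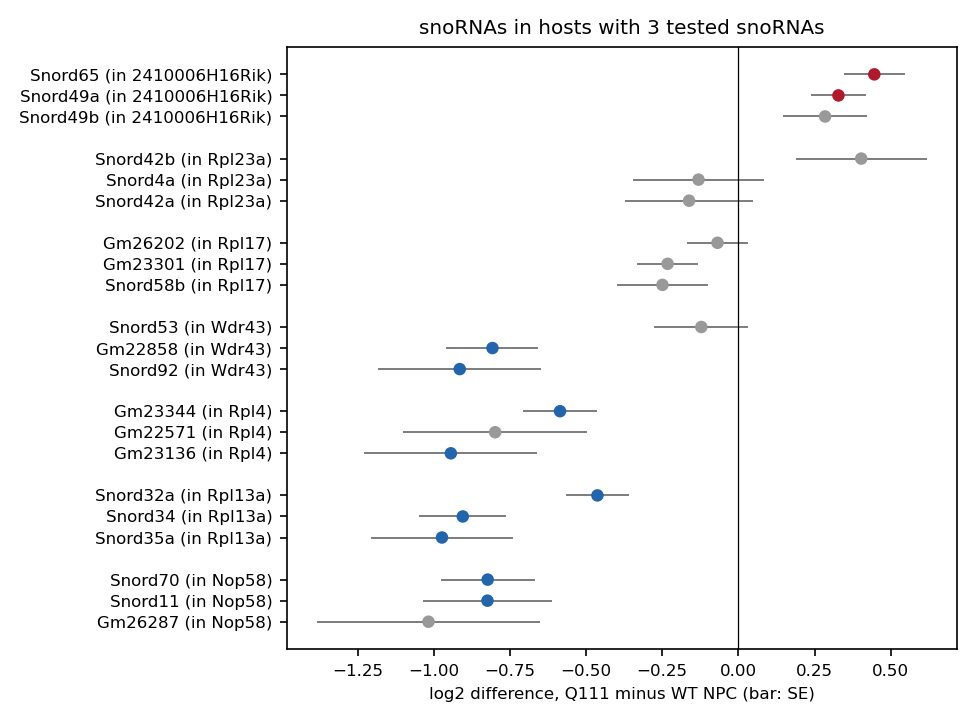
Log2 difference between Q111 and WT NPC for the snoRNAs of the 7 host genes with 3 tested snoRNAs, with bars of 1 SE; red and blue mark calls. The 3 snoRNAs of Rpl13a lie between -0.97 and -0.46, the 3 of 2410006H16Rik between 0.28 and 0.45.

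A few snoRNAs went the other way. Snora21 had 1023 and 1537 CPM in Q111 and 255 and 271 CPM in WT, and the highest of the other 8 NPC libraries had 568 CPM. Its log2 difference was 2.28 (SE 0.32, adjusted p = 0.000206). Of its 30-base stretches 30.6% occur also in the annotated copy Gm23795. The host 2410006H16Rik holds the 2 most abundant snoRNAs of the comparison: Snord49a had 111710 and 118400 CPM in Q111 and 87681 and 95605 CPM in WT (log2 difference 0.33, SE 0.09, adjusted p = 0.027), and Snord65 had 81517 and 91048 CPM against 59923 and 66752 CPM (log2 difference 0.45, SE 0.10, adjusted p = 0.00795). Both were above all other NPC libraries in Q111. Snord49a took 10.5% of the Q111 counts and Snord65 7.88%, and the calls moved with the settings. That for Snord49a was lost under DESeq2's size factors, and both were lost under library totals. Both were also lost in DESeq2's Wald test (adjusted p = 0.226 for Snord49a and 0.0603 for Snord65). Without a filter on low counts Snord49a turned to -0.11 and Snord65 stood at 0.01, neither of them called. The third snoRNA of that host, Snord49b, stood at 0.28 (adjusted p = 0.2). Snord15a, in Rps3, had 2750 and 2520 CPM against 1413 and 1771 CPM (log2 difference 0.73, SE 0.18, adjusted p = 0.0123), while the Rps3 mRNA itself stood at 0.26 (adjusted p = 0.826). The call for Snord15a was lost without a filter on low counts (0.29) and in the 4 libraries alone. Without Q111 replicate 2 the calls for Snord65 and Snord49a were lost, and without Q111 replicate 1 or WT replicate 1 those for Snord49a and Snord15a.

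The snoRNAs of the Dlk1-Dio3 region, which are transcribed from the maternal chromosome with Rian, had low counts. AF357428 had 38 and 48 counts in Q111 and 15 and 9 in WT, or 120 and 117 CPM against 22.9 and 19.7 CPM (log2 difference 2.45, SE 0.34, adjusted p = 0.000206). AF357341 had 107 and 82.9 CPM against 10.7 and 41.6 CPM (log2 difference 1.94, SE 0.48, adjusted p = 0.0141). The call for AF357341 was lost without Q111 replicate 1, without WT replicate 1 (1.21), without the Q20 group (adjusted p = 0.0562), without a filter on low counts and in the 4 libraries alone, and without WT replicate 2 the value was 3.08. Neither was highest in Q111: other NPC libraries reached 1088 and 1149 CPM, and the direct difference from Q20 NPC was -3.14 for AF357428 (SE 0.27, adjusted p = 5.79e-07). Rian had 91.6 and 137 CPM against 65.7 and 50.3 CPM and was not called (log2 difference 0.97, SE 0.31, adjusted p = 0.0526). Of the 102 genes annotated in the region 11 were tested, 2 rose and 0 fell, beside 4.99% and 5.9% of all tested genes. Their median was 1.40. The 4 members with a group at 0, Gm23736, Gm24564, Mir341 and Mir409, had at most 1 count each over the 4 libraries compared. They passed the filter on counts in other NPC libraries. Being under the floor of 3 counts they have no bound, and with their differences set to 0 the median was 0.97. The median is therefore a description of the 11 and not of the region.

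Small Cajal body RNAs, Y RNAs and structural RNAs gave no call. None of 6 Scarna genes was called, with a median of 0.12. Rny1, which binds the Ro60 protein, had 252030 and 228890 CPM in Q111 against 232460 and 124970 CPM in WT and a log2 difference of 0.43 (SE 0.25, adjusted p = 0.302), within the spread of the WT replicates. Rpph1, the RNA of RNase P, had 1250 and 1117 CPM against 738 and 816 CPM and missed the threshold (log2 difference 0.61, SE 0.20, adjusted p = 0.0526). Of the 8 ribosomal-RNA-like loci tested Gm15564 rose (215 and 151 against 70.3 and 103 CPM) and 0 fell, beside 4.99% and 5.9% of all tested genes. The abundant locus Gm26917 had 110600 and 114810 CPM against 58742 and 95386 CPM and was not called (log2 difference 0.55, SE 0.19, adjusted p = 0.0706). The snRNA-annotated locus Gm22265 had 212 and 193 CPM against 39.7 and 87.5 CPM (log2 difference 1.70, SE 0.38, adjusted p = 0.00846). That call was lost without Q111 replicate 1, without WT replicate 1, without a filter on low counts and in the 4 libraries alone, and without WT replicate 2 the value was 2.31. None of 5 tested noncoding or coding snoRNA host transcripts of the list was called, among them Gas5 at 0.64 (adjusted p = 0.424).

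MicroRNA genes were thinly counted. Of 1174 genes 252 had an NPC count and 20 were tested, of which Mir296 rose and 0 fell; 1 of 20 is near the 4.99% of all tested genes that rose. Mir296, from an imprinted locus on chromosome 2, had 15 and 31 counts in Q111 and 9 and 15 in WT (47.4 and 75.6 against 13.7 and 32.8 CPM, log2 difference 1.48, SE 0.44, adjusted p = 0.0382). The gene count does not tell its 2 mature arms apart, which are printed from RefSeq as RNA with the seed, bases 2 to 8, in capitals.
mmu-miR-296-3p: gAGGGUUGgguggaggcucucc
mmu-miR-296-5p: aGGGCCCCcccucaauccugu
The call was lost under library totals. The neural microRNA genes Mir9-1, Mir9-3, Mir181a-1 and Mir181a-2 stood at 0.82, -0.54, 0.46 and -0.54, and none was called.

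Among the mRNAs other than histones Ccnd1, which encodes cyclin D1, a driver of the G1 phase, had 24 and 17 counts in Q111 and 3 and 10 in WT. That is 75.8 and 41.5 CPM against 4.58 and 21.9 CPM (log2 difference 2.23, SE 0.61, adjusted p = 0.0248), and its exons overlap those of LTO1 on the other strand. Eif4a1, the RNA helicase of translation initiation, had 12 and 13 counts against 2 and 6 (log2 difference 2.19, SE 0.58, adjusted p = 0.0209), and its exons overlap 2 annotated small RNA genes on the same strand. Peg10, an imprinted gene derived from a retrotransposon, had 9 and 11 counts against 2 and 6, and other NPC libraries reached 91.5 CPM. Igfbp3 and Igfbp5, both of which bind insulin-like growth factors, moved in opposite directions: Igfbp3 rose with 11 and 15 counts against 0 and 5, and Igfbp5 fell with 1 and 0 counts against 21 and 5. For Igfbp5 the ratio of WT to Q111 was 17.0 with a 95% counting interval of 2.79 to 697. The calls for Ccnd1 and Eif4a1 were lost without Q111 replicate 1 and without WT replicate 1, and that for Eif4a1 also without Q111 replicate 2. Without WT replicate 1 or 2 the value was 1.40 or 3.54 for Ccnd1 and 1.40 or 3.36 for Eif4a1.

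Tnc, which encodes the matrix protein tenascin C of radial glia, was the neural progenitor marker that fell. It had 6 and 6 counts in Q111 and 38 and 24 in WT, or 18.9 and 14.6 CPM against 58.0 and 52.5 CPM (log2 difference -1.73, SE 0.40, adjusted p = 0.0101), a call lost without Q111 replicate 1, without Q111 replicate 2 and without WT replicate 1. Other NPC libraries lay both below and above these, from 4.24 to 91.5 CPM. Of 13 tested progenitor markers Tnc fell and 0 rose, with a median of -0.54 against 0.08 for all genes. That 1 of 13 is near the 5.9% of all tested genes that fell, and 4.99% rose. The radial glia genes Slc1a3 (-0.94, adjusted p = 0.166), Notch1 (-1.17, adjusted p = 0.246), Fabp7 (-0.25, adjusted p = 0.76) and Vim (0.67, adjusted p = 0.354) were not called. Kif21b, a neuronal kinesin, had 2 and 3 counts against 30 and 11 (log2 difference -2.34, SE 0.62, adjusted p = 0.0212). None of 8 tested RNA processing genes and none of 5 ribosomal protein mRNAs was called, and Hip1, the 1 huntingtin partner tested, stood at 0.04 (adjusted p = 0.986).

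**Figure D4:**
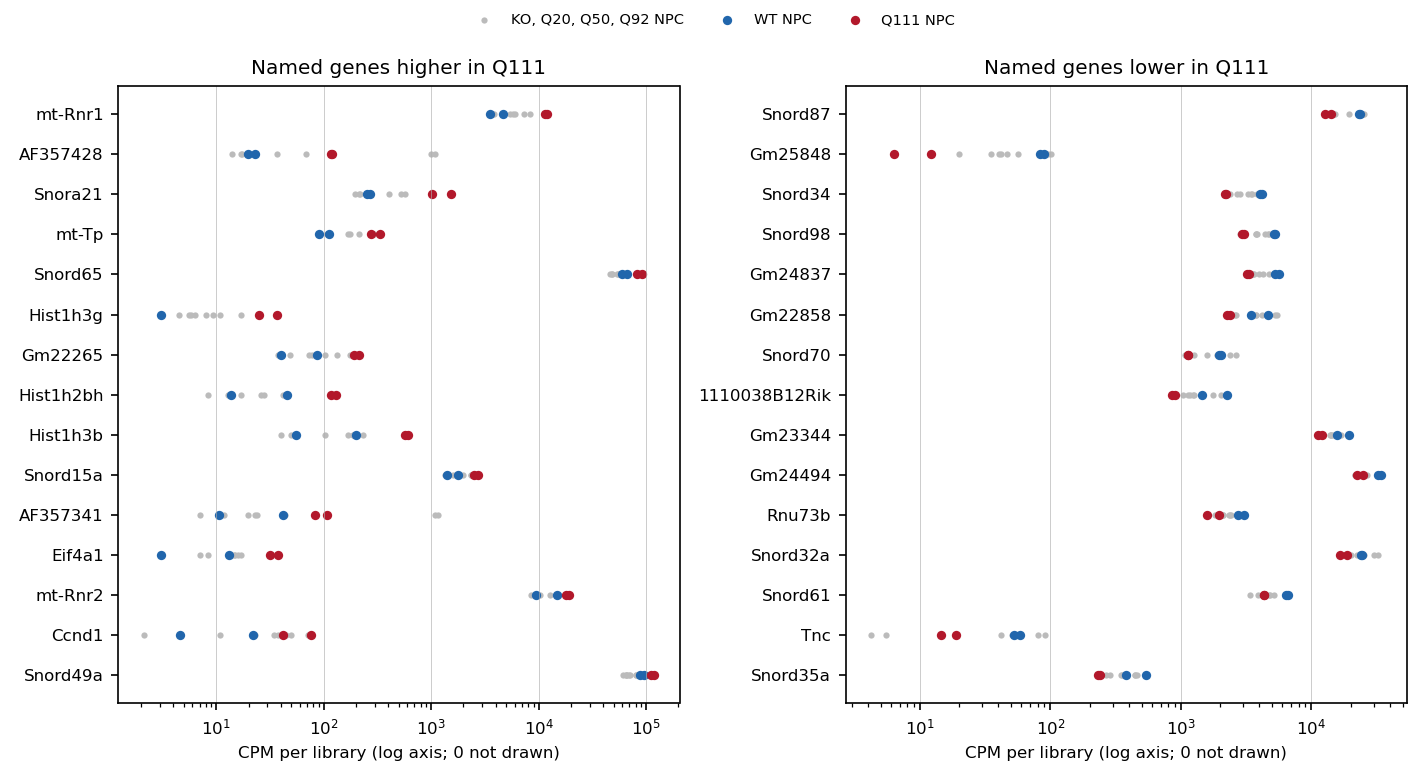
CPM per library on a log axis for the 15 named higher genes (left) and 15 named lower genes (right); red points are the 2 Q111 libraries, blue the 2 WT libraries and grey the 8 KO, Q20, Q50 and Q92 NPC libraries. The red and blue points do not overlap in any row because the naming rule required this. For genes such as mt-Rnr1, Snora21 and Hist1h3b the red points lie beyond the grey ones, while for AF357428, AF357341 and Tnc they lie among them.

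Whether the Q111 line also differed from the other knock-in lines was tested directly in the same fit. Against Q20 NPC, whose repeat is unexpanded, 63 of 441 genes (14.3%) were called, against Q50 NPC 58 (13.2%) and against Q92 NPC 47 (10.7%). These 3 comparisons and the one with WT share the Q111 libraries. The pluripotency markers summed to 460 and 455 CPM in the Q20 NPC libraries and to at most 13.7 CPM in each other NPC library, and genes of the Dlk1-Dio3 region to 5116 and 5055 CPM in Q20 and at most 410 CPM elsewhere. Their part in the differences from Q20, among them that of AF357428, was not tested. mt-Rnr1 was higher in Q111 than in Q20 (log2 difference 0.99, adjusted p = 0.000566), Q50 (0.59, adjusted p = 0.0284) and Q92 (1.64, adjusted p = 1.63e-05). Snora21 was higher than in Q20 (2.56, adjusted p = 2.85e-05), Q50 (2.49, adjusted p = 7.36e-05) and Q92 (1.46, adjusted p = 0.00414). Hist1h3b was higher than in Q20 (3.65, adjusted p = 0.00029), Q50 (2.13, adjusted p = 0.0155) and Q92 (1.66, adjusted p = 0.0452), and Hist1h2bh likewise by 3.49, 2.49 and 1.71. Snord49a and Snord65 were higher in Q111 in each of the 3 comparisons, by 0.40 to 0.84.

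The snoRNAs that fell against WT divided differently. Snord34 was lower in Q111 than in Q20 (-0.63, adjusted p = 0.00614) and Q50 (-0.83, adjusted p = 0.000836) but did not pass against Q92 (-0.21, SE 0.14, adjusted p = 0.325). Snord87 was lower than in Q50 (-0.90, adjusted p = 4.86e-05) and did not pass against Q20 (-0.15, SE 0.11, adjusted p = 0.389) or Q92 (-0.06, SE 0.11, adjusted p = 0.727). Gm24494 passed in none of the 3, with differences from -0.10 to 0.11. Gm25848 was lower than in Q20 (-2.15, adjusted p = 0.00681) and Q50 (-2.34, adjusted p = 0.00473) and stood at -1.50 against Q92 (SE 0.52, adjusted p = 0.0729). Tnc was lower than in Q50 (-1.65, adjusted p = 0.0155) and Q92 (-2.35, adjusted p = 0.000552) and stood at 1.70 against Q20 (adjusted p = 0.0799).

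Over all tested genes, both Q111 libraries lay above the other 10 NPC libraries for 27 (6.12%) and below them for 27 (6.12%). Of the 22 genes called higher 13 lay above all 10, and of the 26 called lower 12 lay below all 10. The call had already set these genes apart from the WT libraries, so the shares are descriptions.

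The same alleles were also compared in mESC, from which the NPC were derived. There 0 of 1766 genes (0%) were called by edgeR, 66 at an unadjusted p under 0.05. The difference between the 2 cell types was tested as an interaction over all 24 libraries and gave 0 of 904 genes (0%), 40 at an unadjusted p under 0.05, and DESeq2's Wald test also gave 0; in simulated counts this test recovered 17.2% of genes changed by a log2 of 2, so the count of 0 is weakly informed. Of the 30 named genes 28 were tested in mESC and 21 had the same sign there. The share with the same sign over all genes tested in both cell types was not computed, so this count is a description only. Gm25848 stood at -2.40 in mESC (SE 0.49, adjusted p = 0.33), with 18.2 and 14.1 CPM in Q111 mESC and 97.9 and 73.0 CPM in WT mESC, so in both cell types every Q111 library was below every WT library. mt-Rnr1 stood at 0.19 (SE 0.45), Snora21 at -0.35 (SE 0.71) and Hist1h3b at -0.78 (SE 1.04). The interaction for Hist1h3b was 2.75 (adjusted p = 0.908) and for Snora21 2.41 (adjusted p = 0.68), so no difference between the cell types was shown for either.

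**Figure D5:**
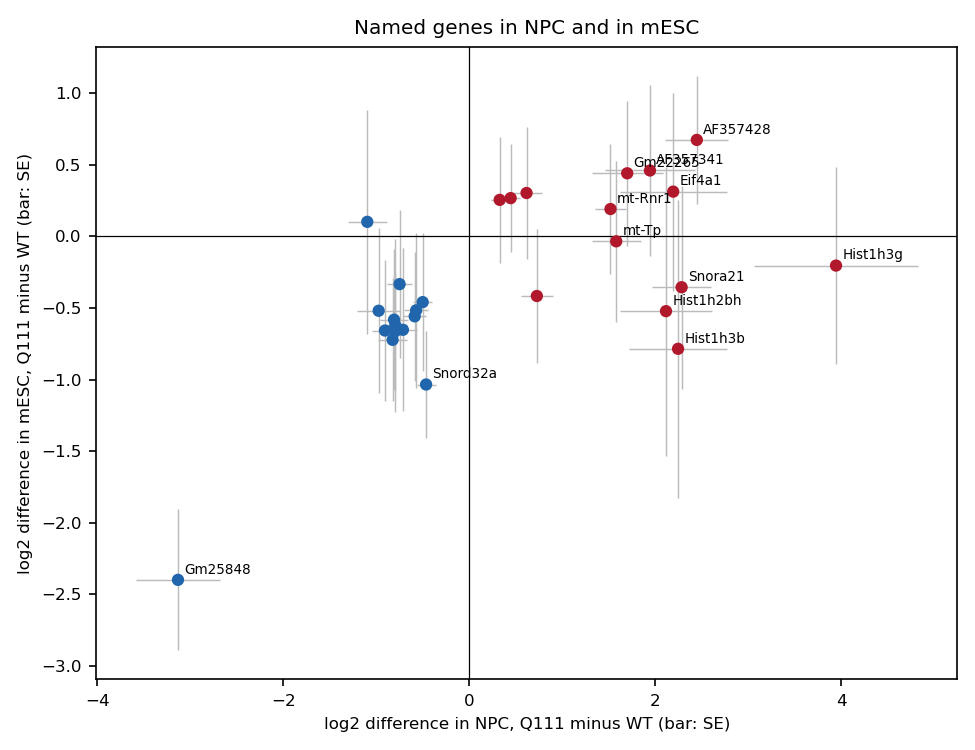
Log2 difference between Q111 and WT in NPC (horizontal axis) and in mESC (vertical axis) for the 28 named genes tested in both, with bars of 1 SE; red genes were called higher and blue lower in NPC. Gm25848 lies at -3.13 and -2.40, and Hist1h3b at 2.25 and -0.78.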

How the data were processed

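Small RNA was sequenced from total RNA of 24 samples as single-end reads, per the labels' protocols. The deposited table holds raw gene counts; the submitters' processing notes name CASAVA 1.8, STAR, HTSeq and the build GRCm38.p6, with no order or parameters. Strand setting and the treatment of reads that match several genes are not given in the sources used here. Of 55335 identifiers 55154 matched GENCODE M21, and 57 of 25027120 counts belonged to no matched gene. Library totals and TMM factors gave CPM, and edgeR 4.0.16 (filterByExpr, minimum count 10, minimum total 15, quasi-likelihood test, Benjamini-Hochberg) was fitted to the 12 NPC libraries in 6 groups of 2 under R 4.3.3. Sharing 1 spread over the groups gives the residual degrees of freedom that 2 libraries a group lack. The test was checked on simulated data. Named genes had an adjusted p under 0.05, CPM ranges that did not overlap and at least 10 CPM in the higher group, up to 15 a direction by p; list members and genes outside that rule were named after their values were seen. Members and lists were chosen with earlier results of these data known. Alternatives were DESeq2 1.42.0, other scalings, no filter, a replicate block, fewer libraries and each library left out. Intervals and floors (3 counts) cover counting error only. A result on 1 called gene is not reported here.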

Additional observations from a re-analysis of the deposited data

How the results depend on the processing

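Against the 48 genes called between Q111 and WT NPC (22 higher, 26 lower), DESeq2's size factors gave 51, library totals 46 (13 higher, 33 lower), no filter on low counts 27 of 14269 (5 higher, 22 lower), DESeq2's Wald test 44 (13 higher, 31 lower), the fit without the Q20 group 39, the fit without the ribosomal-RNA-like loci 59 (21 higher, 38 lower) and the 4 libraries alone 9 (5 higher, 4 lower). Without a filter the median over the 441 genes was -0.35 and Snord49a turned to -0.11; the cause was not tested. Of the 48 calls 47, 39, 25, 35 and 9 were shared with the size factors, library totals, no filter, the Wald test and the 4 libraries. Leaving out 1 library gave 14 to 98 calls (6 to 52 higher, 8 to 46 lower), with the lone sample assumed to vary like the other groups; with the genes of the full set held, an alternative added after the data were seen, it gave 14 to 110 (4 to 62 higher, 8 to 48 lower). The list counts were also recomputed after the data were seen. A replicate block gave 60 calls (30 higher, 30 lower), among them all 48. The replicate numbers are not shown to pair libraries: the replicate differences of Q111 and WT correlated at -0.02 over 441 genes, although those of WT and KO correlated at 0.44.

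Against Q20 NPC (63 genes, 27 higher, 36 lower), library totals gave 24 higher and 54 lower, no filter gave 35 (12 higher, 23 lower), the Wald test 40 (22 lower) and leaving out 1 library 24 to 35 (10 to 20 higher, 13 to 16 lower). Against Q50 NPC (58 genes, 25 higher, 33 lower), library totals gave 27 higher and 21 lower, no filter 14 (5 higher, 9 lower) and leaving out 1 library 12 to 36 (4 to 18 higher, 8 to 18 lower). Against Q92 NPC (47 genes, 29 higher, 18 lower), library totals gave 81 (18 higher, 63 lower), no filter 20 (11 higher, 9 lower), the Wald test 10 lower and leaving out 1 library 24 to 50 (16 to 46 higher, 4 to 8 lower). The interaction gave 0 calls in each alternative run. At these depths 3 counts equal 4.40 to 8.77 counts per 1e+06 of the library total, so genes near that level rest on a few counts.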

Other observations

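Just outside the threshold, at adjusted p between 0.05 and 0.1, lay 26 genes, 14 with a positive and 12 with a negative difference. The imprinted gene Mest had 3 and 1 counts in Q111 and 8 and 27 in WT (log2 difference -2.53, adjusted p = 0.0526). Olig1, a transcription factor of the oligodendrocyte lineage, had 4 and 4 counts against 20 and 13 (log2 difference -1.40, adjusted p = 0.0621). Mir351 had 6 and 8 counts against 47 and 17 (log2 difference -1.52, adjusted p = 0.0623). The 4 genes with the smallest p in the test of the difference between NPC and mESC were Mest, Nckap1, Serpine2 and Nes. Their interaction values were -5.53, -4.15, -5.22 and -5.96, with an adjusted p of at least 0.342. These values rest on few counts. The WT mESC libraries had 1 and 1 for Mest, 3 and 3 for Nckap1, and 0 and 0 for Serpine2 and for Nes. The fitted values of Serpine2 and Nes are therefore no measure of size.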
